A study of Homo sapiens with 6 samples.

Results

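The HIF subunits and oxygen sensors are 10 genes, chosen by symbol from the 25808 gene rows of the deposited table: the alpha subunits HIF1A and EPAS1, their partner ARNT, the prolyl hydroxylases EGLN1, EGLN2 and EGLN3, the asparaginyl hydroxylase HIF1AN, and VHL with its adaptors ELOB and ELOC. All 10 had a row. They were measured by RNA-seq of total RNA in HK2 cells, an immortalised line from human kidney proximal tubule that the labels call a human kidney cell. The TBOEP group (3 libraries) received tris(2-butoxyethyl) phosphate, a plasticiser and flame retardant of the organophosphate ester class, at 20 µM for 48 hours once confluent. The control group (3 libraries) received DMSO, for which neither a dose nor a time is labelled. No genotype or other agent is named and 1 line supplied all libraries. Separate cultures per replicate are not stated, so a p-value here reflects library-to-library spread, possibly technical.

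A hypoxia-inducible factor is a pair of an oxygen-labile alpha subunit and the stable ARNT subunit. With oxygen, iron and 2-oxoglutarate at hand, the EGLN enzymes hydroxylate prolines of the alpha subunit, VHL binds the hydroxylated protein, and a ligase built from VHL, elongin B (ELOB), elongin C (ELOC), the cullin CUL2 and the RING protein RBX1 marks it for the proteasome. HIF1AN, also called FIH, hydroxylates an asparagine and so blocks coactivator binding. In kidney tubules HIF1A is the main alpha subunit, while EPAS1, which encodes HIF-2 alpha, is best known from endothelial and interstitial cells. Control of the alpha subunits is mostly by protein stability, which mRNA levels do not show. EGLN1 and EGLN3 are themselves known targets of HIF.

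The totals behind the FPKM values (fragments per kilobase of gene, scaled to the library total) came to between 32547856 and 35838657 reads in the TBOEP libraries and between 33536445 and 38247579 reads in the DMSO libraries. Of 6 kidney epithelial markers, PAX8, EPCAM, KRT8 and KRT18 were above 1 FPKM in every library. PAX2 and CDH1 stayed under 1 FPKM in every library. Of 13 proximal tubule markers, 12 stayed under 1 FPKM or had no row, the exception being CDH6. All 6 endothelial markers were under 1 FPKM or had no row, with a summed level of 0.00953 to 0.0707 FPKM in TBOEP and 0.00922 to 0.0628 FPKM in DMSO. Among fibroblast, leukocyte and podocyte markers, COL1A1 (22.3 and 27.7 FPKM in TBOEP and DMSO), CSF1R (1.24 and 1.41 FPKM) and SYNPO (9.25 and 9.11 FPKM) passed 1 FPKM. In bulk RNA, fewer cells of a type and less RNA per cell cannot be told apart.

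Cells given TBOEP had less HIF1A, ELOB and ELOC mRNA and more EGLN1, HIF1AN and VHL mRNA than cells given DMSO (the VHL value turns to -0.03 once corrected for GC content and length), while EPAS1, ARNT and EGLN2 did not pass the test. The test was limma's, on log2(FPKM + 1), for the 9631 genes that reached 1 FPKM in 3 or more libraries, with p-values adjusted by Benjamini-Hochberg. Of the 9 members tested, 3 rose, 3 fell and 3 did not pass an adjusted p of 0.05. Of all tested genes 53.8% were called, 26.9% higher and 26.9% lower (50.1% of calls were higher, against 38.6% with median centring), so the 66.7% called among the members is close to a high background. The groups did not overlap in 7 of the 9 tested members, against 62.3% of all tested genes. The sizes were modest, from -0.31 to 0.29 on this log2 scale. With each library corrected for GC content and transcript length, 4 members (HIF1A, EGLN1, HIF1AN and ELOC) were called in the same direction, VHL and ELOB were no longer called, and EGLN2 was called higher. That correction called 44.8% of the genes tested, 20.9% higher and 24% lower. It takes out any group difference that runs with GC content or length, whether technical or from TBOEP. Which of these it removed was not tested.

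**Figure D1:**
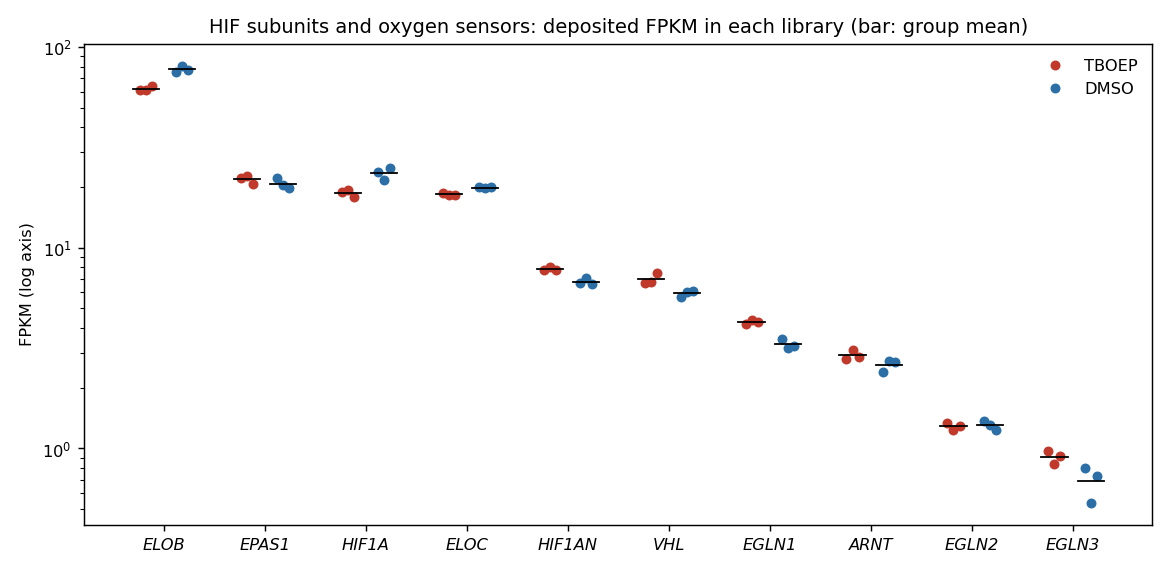
Deposited FPKM of the 10 genes in each of 3 TBOEP (red, left) and 3 DMSO (blue, right) libraries on a log axis, with a bar at each group mean, ordered by mean level. ELOB is the most abundant row in both groups and EGLN3 the least, and only EPAS1 and EGLN2 have groups that overlap.

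The alpha subunits were present at like levels and stood differently between the groups. HIF1A (ENSG00000100644), the broadly expressed alpha subunit, had 19.0, 19.4 and 17.9 FPKM in the TBOEP libraries, against 23.8, 21.7 and 25.0 FPKM in the DMSO libraries. All 3 TBOEP values lay below all 3 DMSO values. The fall was 0.31 ± 0.06 on the log2(FPKM + 1) scale (SE; limma adjusted p = 0.00159), or 20.1% in the means, and it was called with each library left out in turn (limma adjusted p 5.81e-04 to 0.00772). Corrected for GC content and length it was -0.28 ± 0.04 (limma adjusted p = 4.93e-04). The value rested on 3000 to 4693 reads per library.

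EPAS1 (ENSG00000116016) stood at 22.2, 22.8 and 20.8 FPKM in TBOEP, against 22.2, 20.5 and 20.0 FPKM in DMSO. The groups overlapped, and the difference of 0.07 ± 0.05 on the log2(FPKM + 1) scale did not pass (limma adjusted p = 0.278; 95% interval -0.05 to 0.18). EPAS1 was thus at 19.96 FPKM or more in every library, while the endothelial markers were near 0. Of 6 fibroblast and interstitial markers, COL1A1 was at 22.3 FPKM in TBOEP and 27.7 FPKM in DMSO. The other 5 were under 1 FPKM or had no row. The FPKM ratio of HIF1A to EPAS1 was 0.856, 0.852 and 0.861 in the TBOEP libraries, against 1.07, 1.06 and 1.25 in the DMSO libraries. On deposited FPKM the order of the alpha subunits therefore turned over. EPAS1 was above HIF1A in every TBOEP library, and HIF1A was above EPAS1 in every DMSO library, where the ranges of both genes overlapped. The log2 ratio differed by -0.39 (TBOEP minus DMSO), with an exact two-sided permutation p of 0.1, the smallest that 3 libraries against 3 allow. Corrected for GC content and length, HIF1A stood at -0.28 and EPAS1 at -0.03, and their ratio was not recomputed. The sum of both alpha subunits was 40.7 ± 1.85 FPKM in TBOEP and 44.4 ± 1.97 FPKM in DMSO (mean ± SD, n = 3 each), with overlapping groups.

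ARNT (ENSG00000143437), the shared beta subunit, was far lower than its partners, at 2.80, 3.11 and 2.84 FPKM in TBOEP, against 2.42, 2.74 and 2.69 FPKM in DMSO. The TBOEP values lay just above the DMSO values, and the difference of 0.12 ± 0.06 on the log2(FPKM + 1) scale did not pass (limma adjusted p = 0.152); corrected for GC content and length it stood at -0.03. Summed alpha subunit mRNA exceeded ARNT mRNA by 14.8, 13.6 and 13.6 times in the TBOEP libraries and by 19.0, 15.4 and 16.7 times in the DMSO libraries. The alternative beta subunit ARNT2 was at 0.124 FPKM in TBOEP and 0.0826 FPKM in DMSO, with at most 39 reads in a library.

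Reads from the opposite strand may bear on the HIF1A value, since the labels do not fix whether counting used strand. Their part in the HIF1A value was not tested. In GENCODE 29, which places the genes below relative to each other, HIF1A shares its span with the antisense transcripts HIF1A-AS1 and HIF1A-AS3 (HIF1A-AS3 is named HIF1A-AS2 in that release). HIF1A-AS3 was at 1.61 ± 0.0978 FPKM in TBOEP and 1.34 ± 0.203 FPKM in DMSO (SD, n = 3 each; limma adjusted p = 0.116), and HIF1A-AS1 was under 0.36 FPKM in every library. HIF1A-AS1 was not tested, and the group means of both antisense rows were higher in TBOEP. The FPKM of HIF1A-AS3 rest on a length of 5044 bases against 533 in GENCODE 29, so its level cannot be set against that of HIF1A.

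The prolyl hydroxylases formed a graded series. EGLN1 (ENSG00000135766), which encodes PHD2, the main oxygen sensor in normoxia, had 4.15, 4.37 and 4.25 FPKM in TBOEP, against 3.49, 3.16 and 3.26 FPKM in DMSO. The groups were clearly apart, and EGLN1 rose by 0.29 ± 0.05 on the log2(FPKM + 1) scale (limma adjusted p = 0.00183), or 28.9% in the means. It was called with each library left out (limma adjusted p 0.00314 to 0.0091), and the corrected value was 0.30 ± 0.05. EGLN2 (ENSG00000269858), which encodes PHD1, a mostly nuclear enzyme, had 1.34, 1.24 and 1.29 FPKM in TBOEP, against 1.36, 1.32 and 1.24 FPKM in DMSO. These groups overlapped fully, and the difference of -0.01 ± 0.06 did not pass (limma adjusted p = 0.899; 95% interval -0.15 to 0.13). Its transcript is GC-rich, at 63.0% GC, and corrected for GC content and length it was called higher, at 0.21 ± 0.06 (limma adjusted p = 0.0158).

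EGLN3 (ENSG00000129521), which encodes PHD3, the isoform most strongly induced by hypoxia in many cells, had 0.970, 0.833 and 0.914 FPKM in TBOEP, against 0.803, 0.535 and 0.726 FPKM in DMSO. Every library was under 1 FPKM, so the gene was not among those tested, and it rested on 132 to 256 reads per library. The lowest TBOEP value lay just above the highest DMSO value (exact two-sided permutation p = 0.1, the smallest possible). Limma-voom on whole reads recovered from the FPKM steps, for genes with at least 10 reads in at least 3 libraries, put EGLN3 higher by 0.43 ± 0.15 on the log2 count scale (adjusted p = 0.0285); this test was chosen after the data were seen, and it called 38.5% of its 15127 genes. SPTSSA, a gene of sphingolipid synthesis whose span overlaps EGLN3 on the same strand, rose by 0.29 ± 0.05 (limma adjusted p = 8.07e-04), and its part in the EGLN3 value was not tested. DMSO replicate 2 held the lowest EGLN3 value, and the DMSO spread was 20.1% of the mean.

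Summed over the 3 enzymes, EGLN mRNA was 6.46 ± 0.00819 FPKM in TBOEP and 5.30 ± 0.329 FPKM in DMSO (SD, n = 3 each), with no overlap (exact two-sided permutation p = 0.1, the smallest possible). EGLN1 made up 64.2, 67.8 and 65.9% of the sum in the TBOEP libraries, against 61.7, 63.1 and 62.3% in the DMSO libraries. EGLN2 made up 20.7, 19.3 and 20.0% in TBOEP, against 24.1, 26.2 and 23.8% in DMSO. Neither share overlapped between groups (exact two-sided permutation p = 0.1 for each, the smallest possible). The EGLN3 share of 14.0 ± 1.05% in TBOEP and 12.9 ± 1.95% in DMSO did overlap (exact permutation p = 0.6). These shares are on deposited FPKM. Corrected for GC content and length, EGLN1 and EGLN2 were both called higher, at 0.30 and 0.21, and the shares were not recomputed. Per unit of alpha subunit mRNA, the EGLN sum was 0.159 ± 0.0074 in TBOEP and 0.119 ± 0.00338 in DMSO, again without overlap (exact two-sided permutation p = 0.1, the smallest possible).

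**Figure D2:**
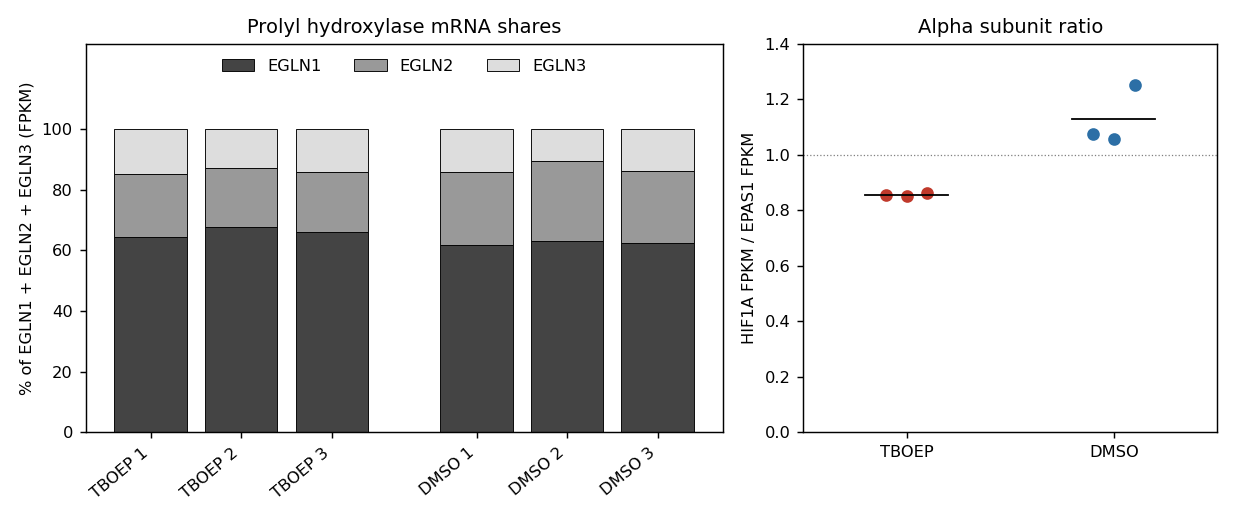
Left, the percent of summed EGLN FPKM from EGLN1, EGLN2 and EGLN3 in each library, TBOEP libraries first. Right, HIF1A FPKM over EPAS1 FPKM in each library with a bar at the group mean and a dotted line at 1; the 3 TBOEP libraries lie between 0.852 and 0.861 and the 3 DMSO libraries between 1.06 and 1.25.

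The promoters of the 3 EGLN genes are shown because the paralogs stood differently between the groups on deposited FPKM. EGLN1 and EGLN3 are also known HIF targets. The sequences are from RefSeq (GRCh38.p14; the deposited values' own build is not stated), run from 250 bases before to 50 bases after the start, and carry in capitals every match to the core letters of a hypoxia response element, ACGTG or GCGTG, on either strand. They lie at chr1:231422238-231422537 (minus strand) for EGLN1, chr19:40798941-40799240 (plus strand) for EGLN2 and chr14:33951025-33951324 (minus strand) for EGLN3.
EGLN1: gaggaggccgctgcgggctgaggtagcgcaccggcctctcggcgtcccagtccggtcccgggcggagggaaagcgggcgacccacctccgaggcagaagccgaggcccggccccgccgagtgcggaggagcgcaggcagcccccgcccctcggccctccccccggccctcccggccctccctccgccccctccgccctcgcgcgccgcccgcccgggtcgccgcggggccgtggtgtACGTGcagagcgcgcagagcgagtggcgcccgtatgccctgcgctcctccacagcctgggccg
EGLN2: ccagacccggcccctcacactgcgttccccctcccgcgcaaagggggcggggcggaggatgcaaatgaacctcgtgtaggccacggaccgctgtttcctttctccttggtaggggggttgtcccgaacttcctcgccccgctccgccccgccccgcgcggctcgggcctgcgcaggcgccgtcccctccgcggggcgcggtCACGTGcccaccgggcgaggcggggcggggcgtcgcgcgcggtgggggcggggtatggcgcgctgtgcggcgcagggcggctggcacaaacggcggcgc
EGLN3: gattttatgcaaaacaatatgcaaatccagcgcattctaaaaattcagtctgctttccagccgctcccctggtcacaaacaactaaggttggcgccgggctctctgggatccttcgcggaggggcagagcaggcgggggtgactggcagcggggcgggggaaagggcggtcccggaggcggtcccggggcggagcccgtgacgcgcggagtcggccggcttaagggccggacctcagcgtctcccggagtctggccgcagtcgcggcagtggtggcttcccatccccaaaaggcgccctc
EGLN1 held 1 ACGTG, whose first base lay at -13 from the start. EGLN2 held ACGTG on both strands at -49 and -48, which overlap in a single palindrome, and EGLN3 held neither motif in this window. The match thus stood in EGLN1, which rose, and in EGLN2, which did not pass (limma adjusted p = 0.899). EGLN2 was called higher only after the correction for GC content and length. EGLN3, without a match, was not in the main test and was called higher by limma-voom (adjusted p = 0.0285). Of the 35116 RefSeq promoters of this length, 21.4% hold ACGTG, 36.5% hold GCGTG and 48.4% hold either. RefSeq promoters were matched for 8 of the 10 members. HIF1A, which fell, and EPAS1, which did not pass, held 1 GCGTG each, and ELOB, which fell, held 2. ARNT, which did not pass, and HIF1AN, which rose, held neither motif. A match is a description of letters and not a site of binding.

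HIF1AN (ENSG00000166135), the asparaginyl hydroxylase, had 7.74, 8.07 and 7.74 FPKM in TBOEP, against 6.64, 7.11 and 6.59 FPKM in DMSO. All TBOEP values were higher, and HIF1AN rose by 0.19 ± 0.05 on the log2(FPKM + 1) scale (limma adjusted p = 0.00961), or 15.8% in the means. The rise was 0.39 ± 0.05 with the correction for GC content and length (limma adjusted p = 2.78e-04), whereas after quantile normalization it was 0.12 and no longer called (limma adjusted p = 0.0543). NDUFB8, a complex I gene on the opposite strand whose span overlaps HIF1AN, was at 5.19 ± 0.219 FPKM in TBOEP and 5.43 ± 0.549 FPKM in DMSO (limma adjusted p = 0.534).

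VHL (ENSG00000134086), the substrate receptor, had 6.65, 6.77 and 7.495 FPKM in TBOEP, against 5.68, 6.0 and 6.11 FPKM in DMSO. The groups did not overlap, TBOEP replicate 3 being the highest, and VHL rose by 0.20 ± 0.06 on the log2(FPKM + 1) scale (limma adjusted p = 0.0148). The call ended without DMSO replicate 1 (limma adjusted p = 0.0539), with quantile normalization (0.0717), with median centring (0.0592) and with no filter on low values (0.062), and the corrected value was -0.03 (limma adjusted p = 0.72).

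The adaptors were lower in TBOEP. ELOB (ENSG00000103363), elongin B, had 61.1, 61.3 and 64.4 FPKM in TBOEP, against 74.9, 80.8 and 76.9 FPKM in DMSO. The groups were far apart relative to their spread, and ELOB fell by 0.31 ± 0.04 on the log2(FPKM + 1) scale (limma adjusted p = 1.39e-04), or 19.7% in the means. Its transcript entered the correction with 997 bases and 61.1% GC, and the corrected value was -0.03 ± 0.03 and not called (limma adjusted p = 0.441). SRRM2, a splicing factor gene on the opposite strand whose span overlaps ELOB, fell likewise, to 17.8 ± 0.677 FPKM in TBOEP against 22.3 ± 0.309 FPKM in DMSO (log2 fold change -0.31, limma adjusted p = 1.9e-04), and its part in the ELOB value was not tested.

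ELOC (ENSG00000154582), elongin C, had 18.8, 18.4 and 18.4 FPKM in TBOEP, against 20.0, 19.8 and 20.1 FPKM in DMSO. The difference was small but the groups were tight, with a spread of 1.32% of the mean in TBOEP and 0.773% in DMSO. ELOC fell by 0.10 ± 0.03 on the log2(FPKM + 1) scale (limma adjusted p = 0.0281), or 7.21% in the means. The call ended without DMSO replicate 1 (limma adjusted p = 0.0747) or 3 (0.061), without TBOEP replicate 2 (0.0904) or 3 (0.069) and with no filter on low values (0.0572). Corrected for GC content and length, ELOC fell by 0.41 ± 0.03 (limma adjusted p = 1.75e-05). The pseudogene ELOCP2 was at 13.5 ± 1.95 FPKM in TBOEP and 14.3 ± 1.81 FPKM in DMSO (SD, n = 3 each; limma adjusted p = 0.6); reads may be shared between it and ELOC, so both values are uncertain. The FPKM ratio of ELOB to ELOC was 3.25, 3.34 and 3.50 in TBOEP, against 3.74, 4.08 and 3.83 in DMSO, without overlap (exact two-sided permutation p = 0.1, the smallest possible). This ratio is on deposited FPKM, and its direction does not hold once both genes are corrected for GC content and length, where ELOB stood at -0.03 and ELOC at -0.41.

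**Figure D3:**
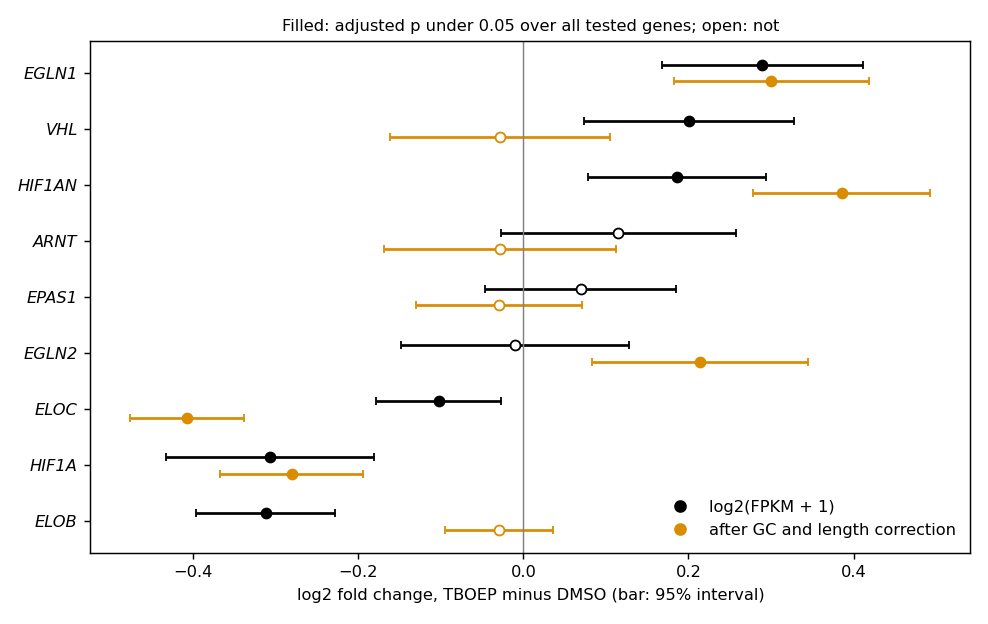
Log2 fold change of each of the 9 tested members (TBOEP minus DMSO) with its 95% interval, on log2(FPKM + 1) (black) and after the correction for GC content and length (orange); filled points are called at an adjusted p under 0.05. HIF1A and EGLN1 hardly move between the fits, ELOB and VHL go to -0.03, and ELOC goes to -0.41.

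By the mean over all 6 libraries, the order of levels among the 10 genes was ELOB, EPAS1, HIF1A, ELOC, HIF1AN, VHL, EGLN1, ARNT, EGLN2 and EGLN3; in DMSO alone HIF1A stood above EPAS1. Neighbours in this order did not overlap within a group, except EPAS1 and HIF1A in DMSO and HIF1A and ELOC in TBOEP. This order depends on the gene length used by the authors. The length behind the FPKM, recovered from the reads, was within 2% of the merged exon length of GENCODE 29 in 6 of the 10 genes, whereas it was 5714 bases against 1128 bases for ELOB, 9275 against 4934 for ELOC, 5001 against 4213 for VHL and 5381 against 7265 for EGLN1. The recomputed levels that follow keep all recovered reads, and whether those lie within GENCODE 29 exons is not known. With GENCODE 29 lengths ELOB would stand at 315 FPKM in TBOEP and 393 FPKM in DMSO. ELOC would stand at 34.8 and 37.5 FPKM, above both alpha subunits. VHL would stand at 8.28 FPKM in TBOEP and 7.04 FPKM in DMSO, above HIF1AN, and EGLN1 at 3.16 FPKM in TBOEP, above ARNT, and 2.45 FPKM in DMSO, below it. Since a gene's length is the same in all libraries, its FPKM ratio between the groups does not move with length for the same reads. Differences on the log2(FPKM + 1) scale and in shares of the EGLN sum do move with length.

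**Figure D4:**
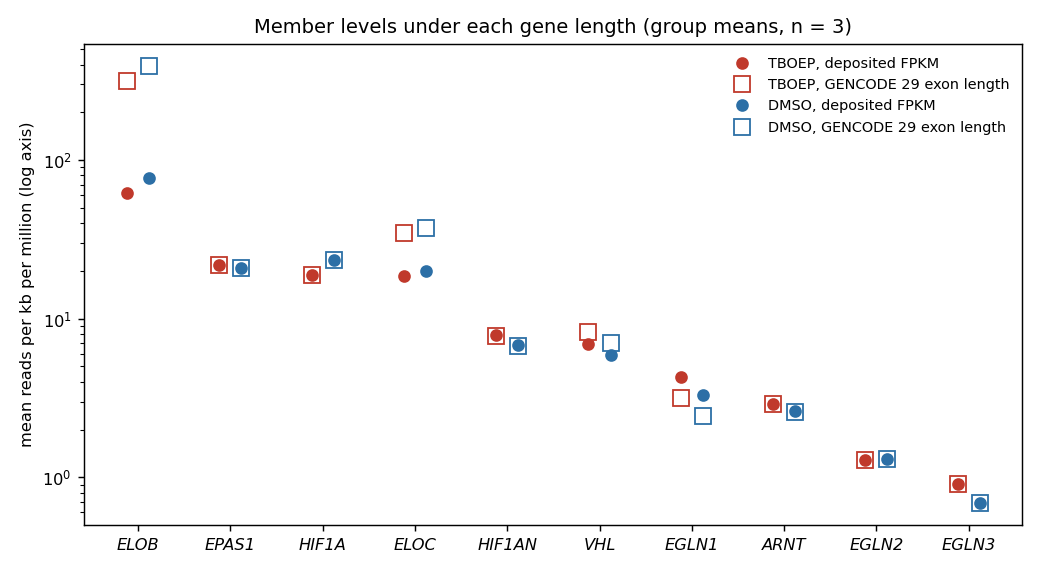
Mean level of each gene in TBOEP (red) and DMSO (blue) on a log axis. Filled circles are as deposited. Open squares are recomputed from the same reads with the merged exon length of GENCODE 29. The pair of symbols parts for ELOB, ELOC, VHL and EGLN1 and coincides for the other genes.

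The other core subunits of the VHL ligase are RBX1 and CUL2. RBX1, the RING subunit, was at 71.2 ± 2.74 FPKM in TBOEP and 59.4 ± 1.21 FPKM in DMSO and rose by 0.26 ± 0.04 (limma adjusted p = 3.28e-04), but its corrected value was -0.07 and was not called (limma adjusted p = 0.111). CUL2, the cullin, had 0.807, 0.817 and 0.589 FPKM in TBOEP, against 0.832, 0.932 and 0.908 FPKM in DMSO, under the 1 FPKM minimum, and its FPKM rest on a length of 14494 bases against 5147 in GENCODE 29. Every TBOEP value of CUL2 lay below every DMSO value, and limma-voom on the recovered reads did not call it (adjusted p = 0.093). Among 17 ligase and elongin partners, 14 were tested, of which 4 rose, 2 fell and 8 did not pass. That is 42.9% called, against 53.8% of all tested genes. The median log2 fold change was -0.02, as over all tested genes (-0.02). The ubiquitin-conjugating enzyme CDC34 fell by 0.44 and the NEDD8-conjugating enzyme UBE2M, which activates cullins, by 0.39, while the conjugating enzyme UBE2D3 rose by 0.28. With the correction 1 partner was called higher and 4 lower, where 20.9% of all genes tested were higher and 24% lower. CDC34 then stood at -0.10 (limma adjusted p = 0.0317), and UBE2M was not called at -0.06 (0.188).

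Among 20 other HIF subunits, coactivators and regulators of stability, 16 were tested, of which 6 rose, 8 fell and 2 did not pass. That is 87.5% called, against 53.8% of all tested genes, with a median log2 fold change of -0.03. COMMD1, which binds HIF1A and hinders its pairing with ARNT, was at 13.4 ± 0.749 FPKM in TBOEP and 7.38 ± 0.208 FPKM in DMSO and rose by 0.78 ± 0.05 (limma adjusted p = 4.37e-06). RACK1, a ribosomal scaffold also known to lead HIF1A to degradation, rose by 0.59 ± 0.02, and SIAH2, a ligase that degrades EGLN enzymes, by 0.42 ± 0.04. UBE2S, a conjugating enzyme reported to lower VHL, fell by 0.56 ± 0.03. The chaperone genes HSP90AA1 and HSP90AB1 and the coactivator genes EP300 and CREBBP were among the 8 that fell. The correction left 4 called higher, COMMD1 at 0.50 among them, and 5 called lower. Of all genes tested with the correction, 44.8% were called, 20.9% higher and 24% lower.

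Of 35 other 2-oxoglutarate oxygenases, the enzyme class that the EGLN proteins and HIF1AN belong to, 27 were tested. Of these, 8 rose, 5 fell and 14 did not pass (48.1% called, against 53.8% of all tested genes). The median log2 fold change was 0.05. JMJD6, a lysyl hydroxylase, rose by 0.63 ± 0.05, the collagen prolyl hydroxylase P4HA2 by 0.61 ± 0.04, TMLHE, which opens carnitine synthesis, by 0.45 ± 0.06, and the collagen prolyl hydroxylase P3H1 by 0.31 ± 0.04 (limma adjusted p 5.93e-06 to 3.9e-04). With the correction 7 were called higher and 4 lower, where 20.9% of all genes tested were higher and 24% lower. P4HA2 then stood at 0.34 and TMLHE at 0.26. The count of falls was 2 with a filter at 5 FPKM, 3 without TBOEP replicate 3 or with no filter on low values, and 8 with limma-voom on genes with 10 reads.

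Listed next were enzymes that make or use 2-oxoglutarate, succinate and fumarate, the cosubstrate of the oxygenases and the acids that inhibit them. Of 18 listed, 16 were tested, 9 rose, 2 fell and 5 did not pass (68.8% called, against 53.8% of all tested genes). The median log2 fold change of these enzymes was 0.25. SUCLG1, a subunit of succinyl-CoA ligase, was at 27.7 ± 1.09 FPKM in TBOEP and 10.1 ± 0.632 FPKM in DMSO and rose by 1.38 ± 0.05 (limma adjusted p = 2.51e-07). The GDP-forming subunit SUCLG2 rose by 0.82 ± 0.06, fumarase (FH) by 0.90 ± 0.06 and glutamate dehydrogenase (GLUD1), which makes 2-oxoglutarate, by 0.74 ± 0.05. The corrected value of GLUD1 was 0.47. The corrected median was 0.19, with 9 higher and 1 lower, where 20.9% of all genes tested were higher and 24% lower. The count of falls was also 1 without TBOEP replicate 1, without DMSO replicate 1, 2 or 3 in turn, and with no filter on low values.

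HIF target genes, 33 listed without the EGLN genes, are known from other cells and tissues. Of these, 30 were tested, 20 rose, 1 fell and 9 did not pass. That is 70% called, against 53.8% of all tested genes (26.9% higher and 26.9% lower). The median log2 fold change was 0.32. PGK1, a glycolytic enzyme, rose by 1.43 ± 0.02, BNIP3, a mitophagy protein, by 0.83 ± 0.03, NDRG1 by 0.73 ± 0.05 and the glycolytic enzyme ENO1 by 0.49 ± 0.02 (limma adjusted p 4.97e-09 to 4.77e-06). The fall was TFRC, the transferrin receptor. SLC2A1, a glucose transporter, stood at 0.08 (limma adjusted p = 0.0518) and KDM3A, a histone demethylase, at -0.09 (0.333). With the correction 20 were called higher and 4 lower (median 0.25), where 20.9% of all genes tested were higher and 24% lower. The targets and the oxygenases share KDM3A, KDM4B, P4HA1, P4HA2 and PLOD2, so the lists are not independent.

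**Figure D5:**
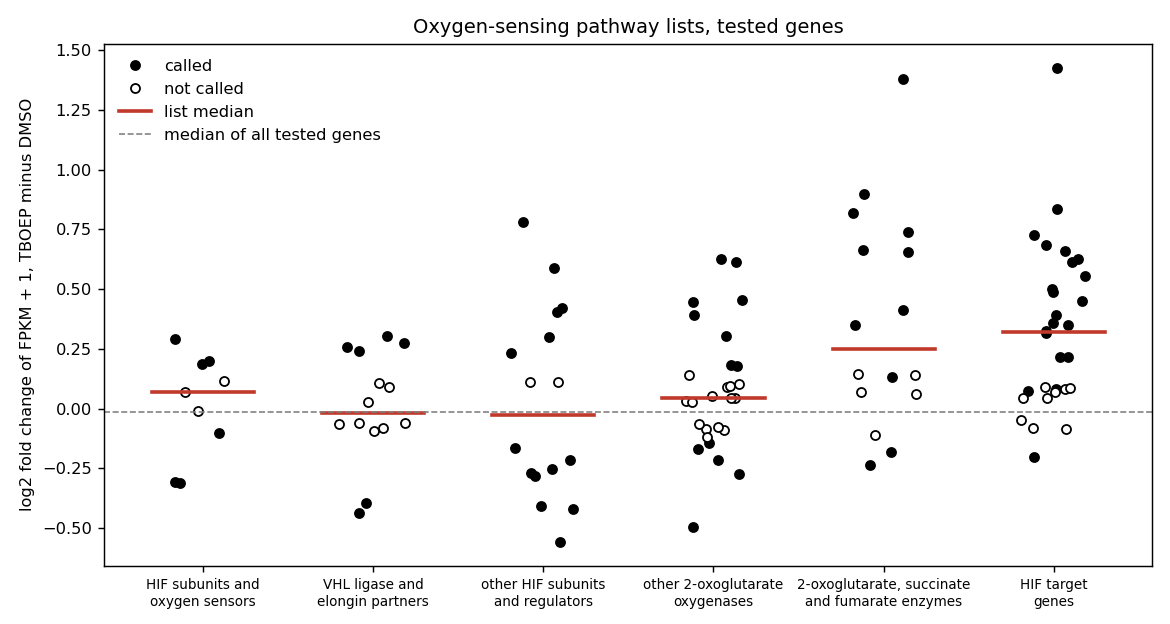
Log2 fold change (TBOEP minus DMSO, FPKM + 1) of each tested gene in 6 lists, with called genes filled, list medians in red and the median of all tested genes dashed. The HIF subunits and oxygen sensors spread on both sides of 0, with a median of 0.07, while the HIF target genes have a median of 0.32.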

How the data were processed

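Gene expression in 6 HK2 libraries was read from 1 table with no unit in its header; the labels name 2 library kits without saying which was used where. The submitters' processing notes name Trimmomatic and HISAT2; no source used here gives the counting tool, build or annotation. The deposited values were taken as FPKM, since each gene's values are whole multiples of 1 step once each library has 1 factor: whole reads came out for all 25808 genes (tolerance 0.01 reads), and lengths equalled GENCODE 29 merged exons in 2568 of 11786 genes over 300 reads. The smallest whole reads were taken, so reads of a gene that share a common factor come out too low. The recovered lengths of GLUD1 (7141.5 bases) and PDK1 (7422.5 bases) are thus not whole. A symbol's highest row stood for it, and 25795 IDs had a symbol.

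Tests used limma 3.58.1 (R 4.3.3, trended, robust, two-sided, no covariate). Across 20 simulated data sets with 200 changed genes each, it recovered 23.3% of 1.25-fold and 86.7% of 2-fold changes. Of the simulated calls, 5.52% fell on unchanged genes. Far more genes were called in the data than were changed in the simulation. A member that did not pass may thus still differ by a small amount. Alternatives were other moderation, scaling, filters, pseudocount (0.1) and gene sets, a replicate block, each library left out, limma-voom on recovered reads with TMM scaling, and a GC and length correction (mgcv 1.9.3). The members and lists were chosen with earlier results of these data known. Named genes were all members, CUL2, RBX1 and up to 4 called genes of smallest p per list; other genes named with a list (TFRC, SLC2A1, KDM3A, the HSP90, coactivator and ARNT2 genes) and the genes overlapping members were chosen after their values were seen. Protein sequences were not used here.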

Additional observations from a re-analysis of the deposited data

How the results depend on the processing

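The main fit called 5178 of 9631 genes. The count was 3714 of 5205 genes with a filter at 5 FPKM and 4105 of 25808 with no filter on low values. Those counts are over unlike numbers of genes. Limma-voom called 5515 of the same 9631 genes, and 5821 of 15127 genes with 10 reads, a setting chosen after seeing the data. With a library left out the count ran from 4556 to 4774. Median centring gave 38.6% of calls as higher, against 50.1%. The 3 members called higher became 1 with quantile normalization (EGLN1), and 2 to 3 with a library left out; the 3 called lower became 2 to 3. HIF1A and EGLN1 were called in the same direction in every alternative that tested them. After the GC and length correction VHL stood at -0.0281, EPAS1 at -0.0296, ARNT at -0.0283, RBX1 at -0.0716 and EGLN2 at 0.21 on the log2 scale. EGLN2 stood at 0.0084 with limma-voom on genes with 10 reads, and between -0.0304 and 0.0075 with a library left out. The cause was not tested.

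With GENCODE 29 lengths and the same reads, the mean log2 ratio of ELOB to ELOC was 3.18 in TBOEP and 3.39 in DMSO (1.75 and 1.96 as deposited). The EGLN1 share was then 59.0% and 55.1%, the EGLN2 share 24.1% and 29.5%, and the EGLN3 share 16.9% and 15.4%. The EGLN3 share differed by 1.12 percentage points, and by -0.00849 to 1.75 with a library left out, the lowest without DMSO replicate 2.

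Same-numbered libraries correlated in their deviations at 0.11, -0.03 and 0.01, and not every library correlated best with its own number. With 3 libraries per group this cannot tell whether equal numbers share a culture or day, which the labels do not state. With the replicate block 4791 genes were called, with 3 members higher and 2 lower; ELOC was not called (limma adjusted p = 0.0623), and 3 other 2-oxoglutarate oxygenases were called lower, against 5 without the block.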

Other observations

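Some rows of genes that most cells express were low in both groups and were not tested. LDHA, a lactate dehydrogenase subunit and known HIF target, was at 0.239 FPKM in TBOEP and 0.131 FPKM in DMSO, with at most 55 reads in a library. SDHB, a succinate dehydrogenase subunit, was at 0.276 and 0.131 FPKM, with at most 30 reads. NEDD8, the modifier that activates cullins, was at 0.287, 0.333 and 0.422 FPKM in TBOEP, against 0.545, 1.09 and 2.42 FPKM in DMSO. The lengths behind these 3 rows were close to those of GENCODE 29 (6026 against 6210, 2445 against 2462 and 3787 against 3879 bases). How reads in overlapping or readthrough gene models were counted is not stated, so these rows and that of CUL2 may not stand for the genes' full transcript levels and are given as listed.

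Neither of the known HIF targets EPO, the kidney hormone gene, and CXCR4, a chemokine receptor, passed 2 reads in a library.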
